A study of Mus musculus with 22 samples.

Results

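Chromatin accessibility was examined around 3 genes of the endothelial cell junction, Pecam1, Cdh5 and Cldn5, in endothelial cells sorted from mouse retinas. The members are the ATAC-seq peaks, here called regions, whose midpoint lies in a fixed mm9 window around each gene. The Pecam1 window spans 106.46 to 106.68 Mb of chromosome 11 (220 kb), the Cdh5 window 106.56 to 106.72 Mb of chromosome 8 (160 kb) and the Cldn5 window 18.70 to 18.85 Mb of chromosome 16 (150 kb). Together they hold 194 of the 106825 regions on placed chromosomes, 124 of 57267 in the control list and 70 of 49558 in the gTKO list.

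In ATAC-seq the transposase Tn5 inserts sequencing adapters into DNA that is not wrapped tightly in nucleosomes, so a region marks accessible chromatin. All pups were on a C57BL/6 background, were null for S1pr3 and carried floxed S1pr1 and S1pr2, 3 genes for receptors of the lipid mediator sphingosine 1-phosphate. The gTKO pups also carried Rosa26-CreERT2, a tamoxifen-dependent recombinase under a promoter active in most cell types, while the control pups had no recombinase. Both genotypes were injected with 100 µg tamoxifen from postnatal day 1 to 3 and were taken at postnatal day 6, although the labels' cell type entry calls the cells adult. There were 3 control and 3 gTKO libraries, each from the pooled retinas of 4 to 6 pups. Each genotype is represented by 1 deposited list of positions, with no score, so nothing here has a replicate error and no test between genotypes was possible. The lists do not give the read depth, and fewer reads or a weaker signal can by themselves make a list shorter and its regions narrower. Excision of S1pr1 and S1pr2 was not checked here.

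Endothelial cells hold each other through adherens and tight junctions, and in the retina these junctions form the inner blood-retina barrier. Pecam1 encodes CD31, an adhesion molecule of the immunoglobulin family that binds its like on the neighbouring cell and takes part in the sensing of flow and in the passage of leukocytes. Cdh5 encodes VE-cadherin, the transmembrane cadherin of endothelial adherens junctions. Cldn5 encodes claudin-5, the main sealing claudin of tight junctions in brain and retinal vessels. Sphingosine 1-phosphate signalling through S1pr1 is known to stabilise endothelial junctions.

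All 3 genes are standard markers of endothelial cells. Their windows were rich in accessible regions in both lists, and whether this goes with their marker role was not tested. The control list held 30.5 regions per 100 kb in the Pecam1 window, 18.1 in the Cdh5 window and 18.7 in the Cldn5 window, against 2.17 over the placed chromosomes. The gTKO list held 11.8, 16.9 and 11.3 regions per 100 kb, against 1.88. No mm9 annotation was used here, so regions are named by position and none is assigned to a promoter, exon or intron. In the GRCm38.p6 gene order of RefSeq, the nearest protein-coding neighbours are Tex2 and Milr1 for Pecam1, Cdh11 and Bean1 for Cdh5, and Septin5 and Cdc45 for Cldn5. Regions in a window may therefore belong to these genes, or to others further away, as well.

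Of the 3 genes, Cldn5 was matched by symbol in the RefSeq promoter table of GRCm38.p6, and Pecam1 and Cdh5 were not. The 250 bases before its annotated start, chr16:18776597-18776846 of GRCm38.p6 on the plus strand, are shown because Cldn5 was the only member matched. They are printed 5′ to 3′ with matches to CCAAT and GGGCGG on either strand in capitals.

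Cldn5: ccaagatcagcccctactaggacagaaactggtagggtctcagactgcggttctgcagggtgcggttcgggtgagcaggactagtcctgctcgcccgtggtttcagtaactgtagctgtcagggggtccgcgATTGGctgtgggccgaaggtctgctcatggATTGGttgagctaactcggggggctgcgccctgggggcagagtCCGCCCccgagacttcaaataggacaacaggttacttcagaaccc

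The Cldn5 sequence is 59.6% G or C, against a median of 52.4% over 32817 RefSeq promoter windows of the same length. It holds the motif CCAAT on the minus strand at 118 to 114 and at 88 to 84 bases before the start, a motif found in 33.8% of these windows. The GC box GGGCGG lies on the minus strand at 45 to 40 bases before the start and is found in 32.7% of windows. Motifs TGANTCA and TGACGTCA, which AP-1 and related factors bind, have no match in it, nor has the ETS core GGAA or the TATA motif TATAAA. On either strand these occur in 6.75%, 1.55%, 93.4% and 12.4% of windows. GRCm38.p6 and mm9 positions are not on one scale, and which mm9 region covers this sequence was not determined.

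The Pecam1 window held far fewer regions in the gTKO list, the Cdh5 window nearly equal numbers, and the Cldn5 window lay between them. At Pecam1, the 67 control regions spanned 31.5 kb of sequence and the 26 gTKO regions spanned 15.8 kb, so the gTKO coverage was 50.1% of the control coverage. At Cdh5, 15.5 kb lay in 29 control regions and 13.6 kb in 27 gTKO regions, or 87.9% of the control coverage. At Cldn5, 19.1 kb lay in 28 control regions and 12.3 kb in 17 gTKO regions, or 64.3%. Over all placed chromosomes the gTKO coverage was 77.1% of the control coverage, so Cdh5 lay above that value and both other windows below it. On the chromosomes that carry the genes it was 76.8% (chromosome 11), 77.0% (chromosome 8) and 77.3% (chromosome 16).

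**Figure D1:**
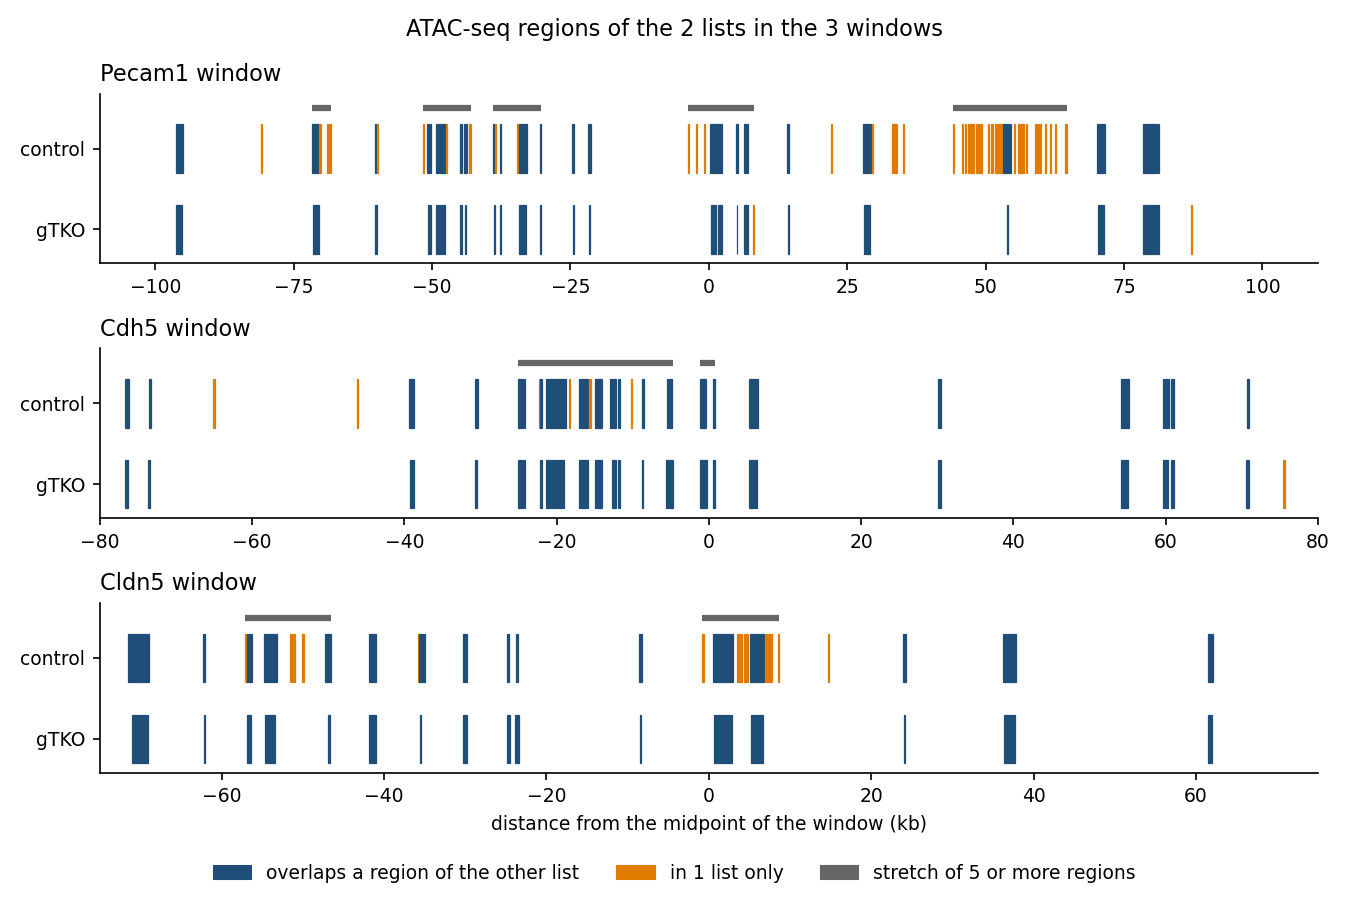
Positions of the 124 control and 70 gTKO regions along the Pecam1, Cdh5 and Cldn5 windows (x axis, distance from the midpoint of each window in kb, scales differ), with regions that overlap the other list in blue, regions of 1 list in orange and stretches of at least 5 regions as grey bars; thin outlines make the narrowest regions visible. The orange block at the right of the Pecam1 window is a stretch of 27 control regions, of which 26 have no gTKO partner.

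A region with no overlap of at least 1 bp in the other list is called control-only or gTKO-only. At Pecam1, 44 of 67 control regions were control-only, which is 65.7% (exact 95% Clopper-Pearson interval 53.1 to 76.8%), against 27.0% of all placed control regions. Cldn5 had 12 control-only regions of 28, or 42.9% (24.5 to 62.8%), an interval that includes the value for the whole list. Cdh5 had 6 of 29, or 20.7% (7.99 to 39.7%), which also includes it. These intervals cover counting error only and treat regions as independent, which neighbouring regions are not. The interval at Pecam1 lay above that at Cdh5, but this rests on 1 group of closely spaced regions described below. Without that group the Pecam1 interval was 29.3 to 61.5%, which overlaps that at Cdh5. The difference between the windows was not tested. In the reverse direction 2 of 26 gTKO regions at Pecam1, 1 of 27 at Cdh5 and 0 of 17 at Cldn5 were gTKO-only, against 9.75% of all placed gTKO regions. For 0 of 17 the exact interval reaches 19.5%, and 3 counts would be 17.6%.

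**Figure D2:**
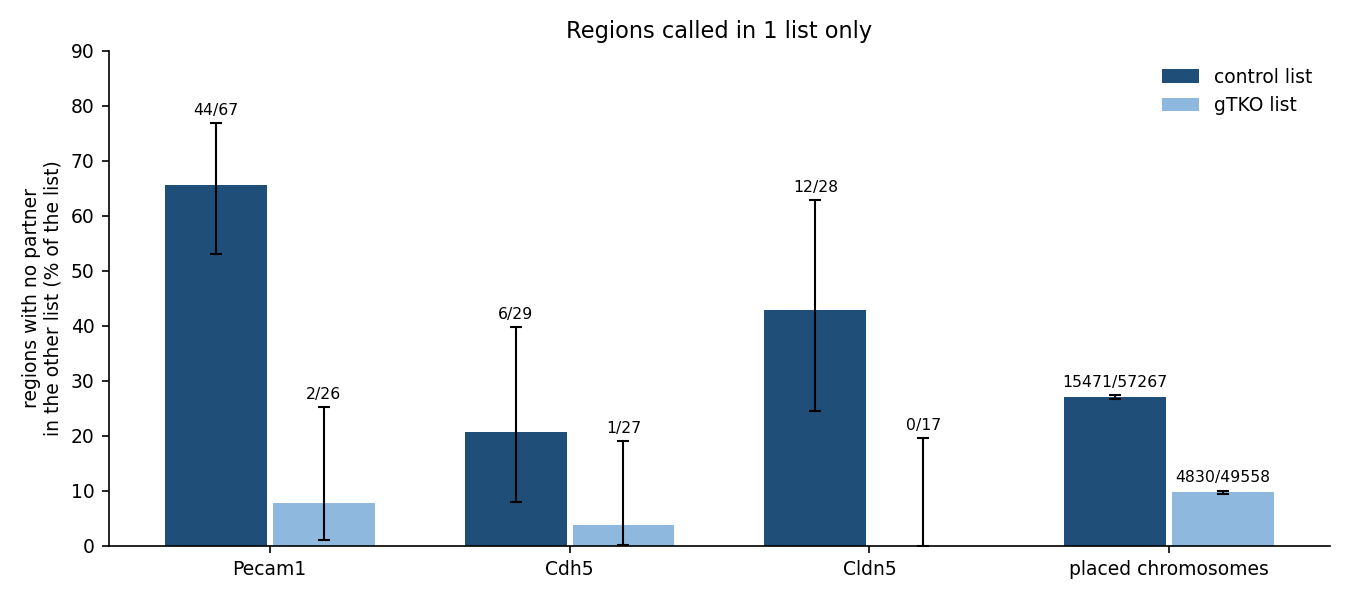
Share of regions with no partner in the other list (y axis, percent of the regions of that list) for the control list (dark) and the gTKO list (light) in each window and over the placed chromosomes; error bars are exact 95% intervals for counting error and the labels give counts. The control bar reaches 65.7% at Pecam1 and 20.7% at Cdh5, against 27.0% over the placed chromosomes.

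At Pecam1, 26 of the 44 control-only regions lay in 1 stretch of closely spaced accessible regions. Regions of both lists were chained where gaps were at most 3 kb, and a chain of at least 5 regions is called a stretch. The Pecam1 stretch with the most regions ran from 106614094 to 106634681 on chromosome 11 (20.6 kb). It held 27 control regions, 26 of them control-only (96.3%, 81.0 to 99.9%), and 1 gTKO region. Control regions covered 8800 bp of it and the gTKO region 155 bp. Its control regions were 150 to 1596 bp wide with a median of 221 bp. Neither list held a region narrower than 150 bp, and the 155 bp gTKO region lies near that limit.

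The widest control region of that Pecam1 stretch, from 106623076 to 106624671 (1596 bp), was the single one with a gTKO partner, which ran from 106623882 to 106624036. The next widest, from 106621774 to 106622745 (972 bp), was the widest control-only region of the 3 windows and lay 1136 bp from the nearest gTKO region. A control region from 106626232 to 106626710 (479 bp) was the third widest control-only region of the Pecam1 window, 2195 bp from the nearest gTKO region. Control-only regions of the stretch lay 836 to 9511 bp from the gTKO list. Whether the stretch lies within Pecam1 or beside it was not determined. It is named after the window, and may belong to a neighbouring gene such as Milr1 or Polg2. Further towards the start of the chromosome, the second widest control-only region at Pecam1, from 106603499 to 106604035 (537 bp), was 4418 bp from the gTKO list. The longest part of the Pecam1 window without a gTKO region, from 106599081 to 106623881 (24.8 kb), held 17 control regions.

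**Figure D3:**
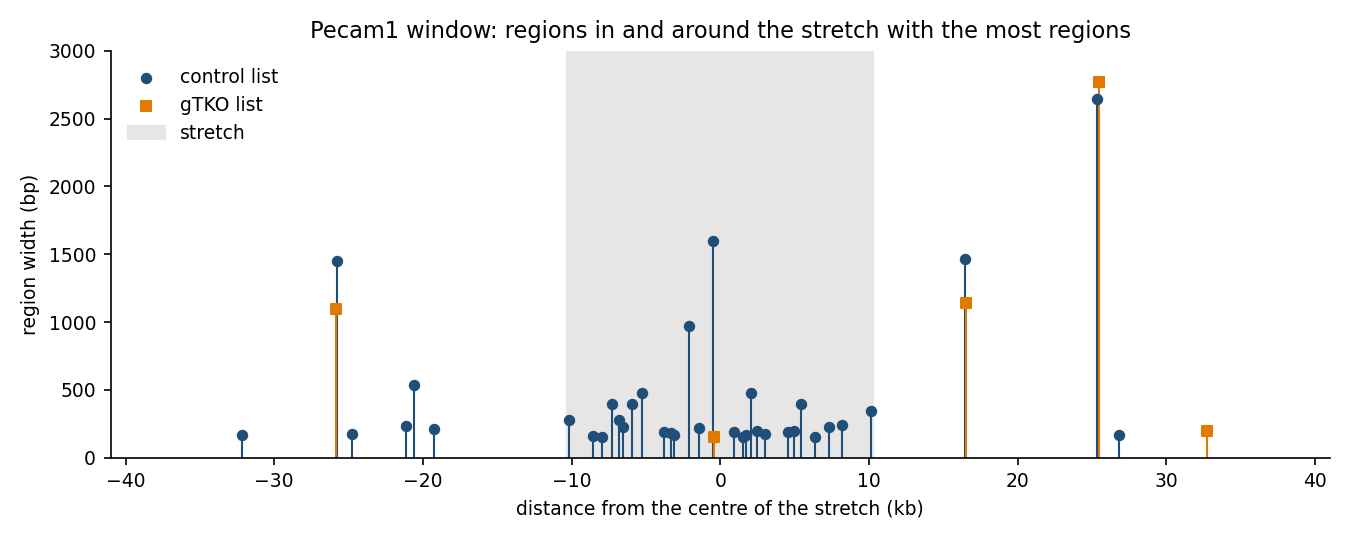
Width of each region (y axis, bp) against its distance from the centre of the Pecam1 stretch with the most regions (x axis, kb) for control regions (blue circles) and gTKO regions (orange squares), with the stretch shaded. Inside the shading stand 27 control regions and 1 gTKO region of 155 bp, while the wide regions on either side are present in both lists.

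The Cdh5 stretch with the most regions was close to it in size and differed in its share of control-only regions. It ran from 106614869 to 106635275 on chromosome 8 (20.4 kb) and, like the Pecam1 stretch, held 28 regions in all. Of these, 15 were control regions covering 8409 bp and 13 were gTKO regions covering 7182 bp. Control-only regions numbered 4 of 15 (26.7%, 7.79 to 55.1%), and their median width was 159 bp. A smaller Cdh5 stretch, from 106638814 to 106640848, held 2 control regions and 3 gTKO regions, with 1048 and 1083 bp covered, and no region of it was in 1 list only. In both Cdh5 stretches the gTKO list thus covered nearly as much sequence as the control list, or slightly more.

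At Cldn5 the stretch with the most regions, from 18774107 to 18783646 on chromosome 16 (9.54 kb), held 8 control regions, 6 of them control-only (75.0%, 34.9 to 96.8%), and 3 gTKO regions. Control regions covered 6538 bp of it and gTKO regions 3699 bp. The second Cldn5 stretch, from 18717873 to 18728427, held 7 control regions, 4 of them control-only, and 3 gTKO regions. The other Pecam1 stretches, 4 in number, held 4 to 7 control regions each, with 2 or 3 control-only regions in each. Their control coverage was 1899 to 4187 bp and their gTKO coverage 1040 to 2803 bp.

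Over the placed chromosomes, 3929 such stretches held 16357 control regions. Of these 28.2% were control-only, against 26.5% of the 40910 control regions outside them. In the 59 stretches with at least 28 regions of both lists together, which include the Pecam1 and Cdh5 stretches described here, 777 of 1577 control regions were control-only (49.3%), and control-only regions were the minority of the control regions in 29 of them. The Pecam1 stretch was 1 of 2 among these 59 with a share of at least 96.3%. By number of control-only regions it ranked 7 among all stretches.

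Without that stretch, 18 of 40 control regions in the Pecam1 window were control-only (45.0%, 29.3 to 61.5%), and the gTKO coverage was 68.8% of the control coverage. The 3 windows together had 62 control-only regions of 124 (50.0%, 40.9 to 59.1%), and 36 of 97 (37.1%, 27.5 to 47.5%) without the stretch. The lower end of the last interval lies just above the 27.0% of the whole list.

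Wide accessible regions in the 3 windows were present in both lists. Regions of at least 1000 bp numbered 18 in the control list (14.5% of its regions in the windows, against 15.3% over the placed chromosomes) and 13 in the gTKO list (18.6%, against 10.8%), and every one of them had a partner. In the whole lists such regions seldom lacked one either, with 41 of 8738 control regions (0.469%) and 0 of 5348 gTKO regions. At Pecam1 the widest control region, from 106648382 to 106651022 (2641 bp), overlapped the widest gTKO region of the 3 windows, from 106648511 to 106651283 (2773 bp). That gTKO region ranked 55 in width in its list, while the control region ranked 263 in its own. It also covered a second control region of 165 bp, the single case in the windows of a gTKO region over 2 or more control regions (1.07% of all placed gTKO regions were of this kind). The gTKO region was thus wider than the 2641 bp control region alone, while the control regions it overlapped summed to 2806 bp.

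Other wide Pecam1 regions were narrower in the gTKO list. The control region from 106640142 to 106641604 (1463 bp) had a gTKO partner of 1138 bp, and that from 106597873 to 106599324 (1452 bp) one of 1097 bp. These lie on either side of the stretch of 27 control regions. A pair of control regions were split: 106520636 to 106522465 (1830 bp) into gTKO regions of 929 and 622 bp, and 106535659 to 106537099 (1441 bp) into gTKO regions of 1023 and 193 bp.

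At Cdh5 the widest control region, from 106618621 to 106620219 (1599 bp), lay within the larger stretch and held 3 gTKO regions of 360, 210 and 736 bp. The next, from 106622913 to 106624122 (1210 bp), met the widest gTKO region of that window, from 106622942 to 106624149 (1208 bp). The Cdh5 window thus held a wide region of almost equal extent in both lists. Control regions from 106645327 to 106646458 (1132 bp) and from 106694148 to 106695199 (1052 bp) had partners of 1044 and 949 bp. The fifth widest, from 106620231 to 106621220 (990 bp), had a partner of 687 bp. In the smaller stretch, the control region from 106638814 to 106639601 (788 bp) was split, with gTKO regions of 462 and 285 bp.

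At Cldn5 the widest control region, from 18703404 to 18706026 (2623 bp), had a gTKO partner of 2011 bp. The second, from 18775513 to 18777997 (2485 bp), lay in the stretch with the most regions and enclosed the widest gTKO region of the window, from 18775636 to 18777890 (2255 bp). The third, from 18780054 to 18781814 (1761 bp), held 2 gTKO regions of 1289 and 155 bp. Those from 18811212 to 18812808 (1597 bp) and from 18720235 to 18721767 (1533 bp) had partners of 1342 and 1273 bp. Over the 3 windows 5 control regions were split in this way into 2 or more gTKO regions, 2 at Pecam1, 2 at Cdh5 and 1 at Cldn5, which is 4.03% of the control members against 5.28% of all placed control regions.

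Narrower control-only regions at Cldn5 sat beside these wide ones. The widest, from 18781872 to 18782763 (892 bp), was 165 bp from the nearest gTKO region, and the next, from 18779273 to 18779807 (535 bp), was 428 bp from it. The third, from 18774107 to 18774398, was 292 bp wide and 1237 bp away. At Cdh5 the control-only regions were narrow, from 154 to 256 bp. The widest of them, from 106574897 to 106575152 (256 bp), was 8301 bp from the gTKO list, that from 106629790 to 106629959 (170 bp) was 1305 bp away, and that from 106593718 to 106593880 (163 bp) was 6810 bp away. The 3 gTKO-only regions were narrow as well, with 197 bp (106657045 to 106657241) and 181 bp (106578066 to 106578246) at Pecam1 and 178 bp (106715462 to 106715639) at Cdh5.

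Control-only regions were mostly narrow, as in the whole list, where narrow regions have a partner less often. Among control members of 150 to 199 bp, 31 of 35 were control-only (88.6%, 73.3 to 96.8%), against 66.4% of all placed control regions of that width. For 200 to 299 bp it was 20 of 29 (69.0%, 49.2 to 84.7%), against 38.5%. For 300 to 499 bp it was 7 of 21 (33.3%, 14.6 to 57.0%), against 19.1%, and 1 of 15 without the Pecam1 stretch. For 500 to 999 bp it was 4 of 21 (19.0%, 5.45 to 41.9%), against 3.65%, and 3 of 20 without the stretch. Without the stretch the narrowest classes gave 18 of 22 (81.8%, 59.7 to 94.8%) and 14 of 23 (60.9%, 38.5 to 80.3%). The first interval includes the 66.4% of the whole list, and the lower end of the second lies at its 38.5%.

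Paired regions could be compared in width where 1 control region met 1 gTKO region. At Pecam1 the control region was the wider in 17 of 19 pairs, at Cdh5 in 14 of 21 and at Cldn5 in 13 of 15, against 79.5% of the 37878 pairs on the placed chromosomes. The gTKO region was the wider in 2, 7 and 2 pairs, against 19.9% of all pairs. The 3 windows together gave 44 of 55 (80.0%, 67.0 to 89.6%), a share close to that of all pairs. The median ratio of control to gTKO width was 1.30 at Pecam1, 1.08 at Cdh5 and 1.30 at Cldn5, against 1.15 over all pairs. Median widths (control, then gTKO) were 457 and 402 bp for Cdh5 pairs, 469 and 315 bp for Pecam1 pairs, and 686 and 413 bp for Cldn5 pairs.

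The largest ratios of control to gTKO width were at Pecam1 and Cldn5. The ratio was over 1.5 in 5 of 19 Pecam1 pairs, 1 of 21 at Cdh5 and 4 of 15 at Cldn5. The 3 windows together gave 10 of 55 (18.2%), close to the 17.2% of all pairs. The largest ratio, 10.3, belonged to the 1596 bp region of the Pecam1 stretch with its partner of 155 bp, and the next, 4.40, to a Cldn5 region from 18739360 to 18740085 (726 bp, partner 165 bp). In the other direction the lowest ratio was 0.46, for a Cdh5 region from 106710743 to 106710919 (177 bp) whose gTKO partner measured 381 bp. The gTKO region lay wholly inside its partner in 15 of 19 Pecam1 pairs, 8 of 21 at Cdh5 and 12 of 15 at Cldn5. Together these were 35 of 55 (63.6%), close to the 62.7% of all pairs. At Cdh5 4 control regions lay wholly inside their gTKO partner, and 1 did so in each other window. These were 6 of 55 pairs, against 10.6% of all pairs.

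**Figure D4:**
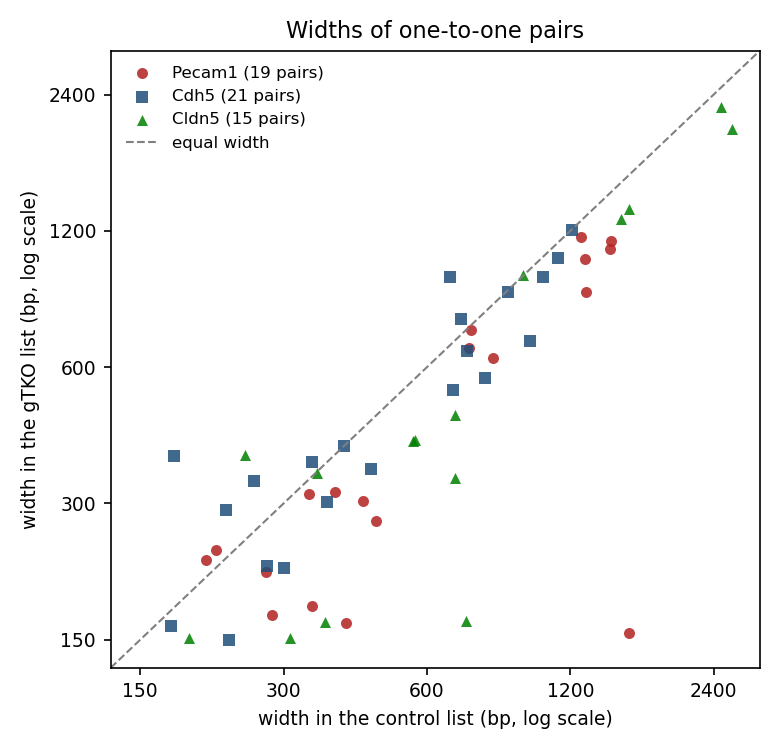
Width in the gTKO list (y axis, bp, log scale) against width in the control list (x axis, bp, log scale) for the 55 one-to-one pairs at Pecam1 (circles), Cdh5 (squares) and Cldn5 (triangles), with equal width as a dashed line. Most points lie below the line, Cdh5 points lie on both sides of it (14 below, 7 above), and the circle at the lower right is the Pecam1 pair of 1596 and 155 bp.

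No stretch crossed an edge of a window. The last control region before the Pecam1 window ended 26530 bp outside it, and the first after it began 1659 bp outside. For Cdh5 these distances were 7148 and 23014 bp, and for Cldn5 3050 and 8668 bp. The outermost control members were 1261 and 165 bp wide at Pecam1, 457 and 177 bp at Cdh5, and 2623 and 686 bp at Cldn5. The regions just outside were 217 and 163 bp, 335 and 370 bp, and 403 and 237 bp wide.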

How the data were processed

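The authors deposited 1 list of ATAC-seq peak positions per genotype, with 3 columns (sequence name, start, end) and no other measure, such as a score. Each list is named in the labels of 3 libraries. Bowtie2, Picard, MACS2 and bedtools are among the tools named for the series, and mm9 is the build, per the submitters' processing notes. For the calling threshold, filters and pooling of reads the sources used here give nothing. The 16 RNA-seq libraries were not analysed here.

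Regions on chromosomes 1 to 19, X and Y were used, which left out 1044 control and 620 gTKO peaks. No region touched another of its list. Membership in a window was decided by a region's midpoint. Starts are given 1-based. Shares carry exact 95% Clopper-Pearson intervals. Per locus, the 5 widest control regions, the widest gTKO region, the 3 widest regions of each one-list class, all splits and the stretch with the most regions were named. The members, lists and rules were chosen with earlier results of these data known. Overlap was tested against a copy of the control list with regions dropped, shifted and added, and chaining on made-up regions, both with known answers. Python 3.11.15, numpy 2.4.6, pandas 2.3.3, scipy 1.17.1 and matplotlib 3.10.9 were used.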

Additional observations from a re-analysis of the deposited data

How the results depend on the processing

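Control-only regions outnumbered gTKO-only regions in each window under every alternative that was run, except that at Cdh5 both counts were 0 with regions of at least 300 bp. The whole lists had the same order, with 15471 control-only regions (27.0%) and 4830 gTKO-only regions (9.75%), so it is not particular to these windows. The gTKO coverage stayed below the control coverage in 13 of 13 alternatives. Over all placed chromosomes it was 77.1% of the control coverage, so a lower gTKO coverage is not particular to these windows. Keeping regions of at least 200 bp, with partners of any width, left 24 control-only regions of 46 at Pecam1, 1 of 22 at Cdh5 and 6 of 21 at Cldn5, against 16.2% of the placed list, and 0 gTKO-only regions in each window, against 5.06%. With at least 300 bp these were 9 of 27, 0 of 17 and 2 of 16, against 8.02%, and again 0 gTKO-only regions, against 1.67%. Both cuts leave fewer regions. With an overlap of at least 50% of both regions, 6 of 26 regions at Pecam1, 6 of 27 at Cdh5 and 5 of 17 at Cldn5 were gTKO-only. Control-only regions were then 47 of 67, 8 of 29 and 16 of 28. With at least 50% of the region itself there were 2 gTKO-only regions of 27 at Cdh5. Whole-list shares under either rule were not computed, so these counts have no background to be set against. With windows shortened by 20 kb at each end, 0 gTKO-only regions were left at Cdh5. Without its stretch with the most regions, an alternative chosen after seeing the data, the Pecam1 window had 18 control-only regions, a gTKO coverage of 68.8% of the control coverage and a median pair ratio of 1.29.

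The gTKO coverage as a percentage of the control coverage at Pecam1, Cdh5 and Cldn5 was 48.4, 86.9 and 62.1 with shortened windows, 50.3, 87.6 and 64.3 with windows lengthened by 20 kb, 52.3, 91.6 and 64.1 with regions of at least 200 bp, and 58.5, 91.0 and 69.2 with at least 300 bp. When all control regions with a partner were set against the gTKO sequence they overlapped, the median ratios were 1.29 at Pecam1, 1.12 at Cdh5 and 1.28 at Cldn5. Gaps of at most 10 kb gave 2 stretches at Pecam1, and control-only shares of 77.3% at Pecam1 and 27.8% at Cldn5 in the stretch with the most regions, which was then longer at Pecam1 and another one at Cldn5. With gaps of at most 5 kb that Cldn5 share was 44.4%, again in the other stretch. At 10 kb the Cldn5 stretch began at 18683252, outside the window, so its share includes regions that are not members. Gaps of at most 1 kb gave 1 stretch at Cldn5, and chaining the control list alone gave 1 at Cdh5.

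No paired analysis was possible because the 3 libraries of a genotype share 1 list, which also meant that leaving out a library was not run. Depth is unknown, and its part in these values was not tested.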

Other observations

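The surroundings of the 3 windows were described after the values above were seen. In the 500 kb on either side of the Pecam1 window, 12 of 56 control regions were control-only (21.4%, exact 95% interval 11.6 to 34.4%), against 44 of 67 inside it. Around the Cdh5 window 5 of 27 were control-only (18.5%, 6.30 to 38.1%), and around the Cldn5 window 5 of 37 (13.5%, 4.54 to 28.8%), against 6 of 29 and 12 of 28 inside. Outside the windows the gTKO coverage was 78.5% of the control coverage at Pecam1, 70.5% at Cdh5 and 77.0% at Cldn5. Inside them it was 50.1%, 87.9% and 64.3%, so Cdh5 was the one locus of the 3 with a higher value inside its window than outside. Without its stretch with the most regions the Pecam1 window gave 18 of 40 control-only regions (45.0%, 29.3 to 61.5%). That interval overlaps the one of its flanks, and the gTKO coverage was then 68.8% of the control coverage. The flanks held 5.60, 2.70 and 3.70 control regions per 100 kb, fewer than the windows.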
